A study of Mus musculus with 4 samples.

Results

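The TGF-β ligand gene Tgfb1, the receptor genes Tgfbr1, Tgfbr2 and Tgfbr3, the signal transducer genes Smad2, Smad3, Smad4 and Smad7, and the repressor genes Ski and Skil were read in splenic Treg cells with and without Setd2. These 10 genes were taken by symbol from the 24087 genes of the deposited table, and all 10 were found and passed the filter on low values, which asked for 2 or more libraries with an FPKM of 1 or above. RNA-seq was run on CD3+CD4+YFP+ cells sorted from the spleen at steady state. The control cells (CTRL) came from Foxp3Cre-YFPSetd2f/+ mice and the Setd2-deficient cells (KO) from littermate Foxp3Cre-YFPSetd2f/f mice, all C57BL/6. Mice of both genotypes carried Foxp3Cre-YFP, in which Cre recombinase and YFP are made under the control of Foxp3, so that Setd2 was deleted in Foxp3-expressing cells. The Treg cells of CTRL mice also had 1 floxed Setd2 allele and are therefore not wild type. Each genotype had 2 libraries, named CTRL 1 and 2 and KO 1 and 2, each made from about 1000000 cells pooled from 2 mice. Mice were 6 to 12 weeks old unless specified otherwise, and the age and sex of these pools were not given in the sources used here.

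TGF-β is secreted in a latent form and, once released, binds the type II receptor TGFBR2, which recruits and phosphorylates the type I receptor TGFBR1. TGFBR1 in turn phosphorylates SMAD2 and SMAD3, which join SMAD4 and enter the nucleus to regulate transcription. SMAD7 blocks the activated type I receptor, and SKI and SKIL (also called SnoN) repress SMAD-bound target genes. In T cells TGF-β induces Foxp3 and the integrin CD103 (Itgae) and represses cytotoxic and Th1 genes, and Treg cells themselves display latent TGF-β on GARP (Lrrc32). Setd2 encodes the methyltransferase that places H3K36me3 in the bodies of transcribed genes.

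To show what sequence lies at these genes, the 250 bases before the transcription start are printed for 3 of them. Smad3 and Tgfb1 are the members whose KO values were higher, and Tgfbr2 is a member whose groups overlapped. Sequences are those of RefSeq on GRCm38.p6, 5′ to 3′ on the strand of the gene. Capitals mark CAGAC, the core of the SMAD-binding element, and GGGCGG, the GC box, each on either strand (GTCTG and CCGCCC on the other).
Smad3, minus strand, chr9:63757995-63758244: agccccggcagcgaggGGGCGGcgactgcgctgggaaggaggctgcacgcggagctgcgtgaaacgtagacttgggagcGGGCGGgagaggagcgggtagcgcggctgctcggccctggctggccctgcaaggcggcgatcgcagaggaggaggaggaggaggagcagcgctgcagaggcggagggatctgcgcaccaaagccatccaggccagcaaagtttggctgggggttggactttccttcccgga
Tgfb1, plus strand, chr7:25686752-25687001: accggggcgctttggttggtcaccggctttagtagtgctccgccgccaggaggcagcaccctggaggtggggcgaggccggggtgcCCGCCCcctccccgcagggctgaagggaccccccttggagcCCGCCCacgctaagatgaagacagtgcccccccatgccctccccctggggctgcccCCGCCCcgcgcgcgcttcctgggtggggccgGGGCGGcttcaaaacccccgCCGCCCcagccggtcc
Tgfbr2, minus strand, chr9:116175364-116175613: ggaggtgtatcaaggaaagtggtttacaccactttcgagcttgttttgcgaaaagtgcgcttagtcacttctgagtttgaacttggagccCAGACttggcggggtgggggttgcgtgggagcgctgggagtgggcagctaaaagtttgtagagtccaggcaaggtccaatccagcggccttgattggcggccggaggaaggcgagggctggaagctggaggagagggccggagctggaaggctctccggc
The Smad3 window held 2 GC boxes and the Tgfb1 window 5, and neither held CAGAC. The Tgfbr2 window held no GC box and 1 CAGAC, which began 160 bases before the start. CAGAC was present in 42.2% and GGGCGG in 32.7% of 32851 RefSeq promoter windows of the same length. GC content was 69.2% for Smad3, 75.2% for Tgfb1 and 58.4% for Tgfbr2, compared with a median of 52.4% over all windows. These matches are descriptions of letters and not of binding. RefSeq promoters were matched for 5 of the 10 genes.

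Sequencing depth was alike in the 4 libraries. Summed FPKM (fragments per kilobase of gene, scaled to sequencing depth) ran from 465594 to 472830, the relative depth read from the values from 1 to 1.08, and the reads recovered from them from at least 30575941 to at least 33184295. CTRL 1 stood apart in 1 respect, with 19100 genes above 0, compared with 15913 to 16410 in the other libraries. Each value of a member rested on at least 498 reads. The targeted gene Setd2 was measured at 23.4 and 25.3 FPKM in CTRL 1 and 2, against 21.3 and 19.5 FPKM in KO 1 and 2. Both KO libraries were thus below both CTRL libraries, but the difference did not pass the threshold, an adjusted p under 0.05 (limma adjusted p 0.0970), and the deleted exons were not read separately here. By measures other than RNA, the study reported loss of Setd2 (flow cytometry) and strongly reduced H3K36me3 (western blot) in splenic KO Treg cells. Treg cell markers (5 genes, Foxp3, Il2ra, Ctla4, Ikzf2 and Tnfrsf18) summed to between 1068 and 1178 FPKM in every library. Ctla4 was the largest part of this sum, at 533.8 to 655.9 FPKM. Foxp3 and Il2ra (log2 fold changes -0.17 and -0.35) were lower in both KO libraries than in either CTRL library. Ikzf2 (0.17) was higher in both, and the groups of Ctla4 and Tnfrsf18 overlapped. T cell markers (Cd3d, Cd3e, Cd3g and Cd4) summed to between 1177 and 1333 FPKM. Myeloid markers (7 of 7 genes present, among them Lyz2 and Csf1r) summed to 172.6 and 102.8 FPKM in CTRL and to 238.6 and 84.4 FPKM in KO, and so were higher in both libraries numbered 1. B cell markers (5 of 5 genes) summed to 25.8 and 21.5 FPKM in CTRL 1 and 2 and to 39.9 and 24.1 FPKM in KO 1 and 2. Erythroid markers (5 of 6 genes in the table) summed to 22.7 and 4.16 FPKM in CTRL 1 and 2 and to 38.5 and 11.4 FPKM in KO 1 and 2. Both lists were thus also higher in the libraries numbered 1. Platelet markers (5 genes) summed to 5.29 to 6.22 FPKM, NK cell markers (3 genes) to 2.41 to 3.19 FPKM, and CD8 T cell markers (Cd8a and Cd8b1) to 8.49 to 11.4 FPKM, of which Cd8a held at most 0.326 FPKM. Of the stromal and endothelial markers (4 genes, 49.0 to 58.0 FPKM), Pecam1 held nearly all, while Cdh5, Col1a1 and Col3a1 were each at most 0.440 FPKM. None of the markers tested in any of these lists passed the threshold.

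Among the 10 genes, Smad3 alone passed the threshold. Its mean level was 1.25 times as high in KO as in CTRL. The remaining 9 genes did not pass. Of these, Smad4 and Ski had lower and Tgfb1 higher values in both KO libraries than in either CTRL library, by log2 fold changes of -0.24, -0.19 and 0.18, and the receptors differed by at most 0.13 in size. Thus 1 of 10 genes was called higher and 0 were called lower at adjusted p under 0.05 (limma on log2(FPKM + 1), Benjamini-Hochberg over all 11399 genes tested), and 4 of 10 had an unadjusted p under 0.05. Over all genes tested, 5.10% were called higher, 4.65% lower and 9.75% in either direction, and 34.7% had an unadjusted p under 0.05. The share called among the 10 genes was therefore near the background. KO and CTRL values did not overlap for 6 of the 10 genes, compared with 64.5% of all genes tested. KO lay above CTRL for 2 of them (29.0% of all genes tested) and below CTRL for 4 (35.5%). Taking the 10 genes together, the median log2 fold change came to -0.097, against -0.022 for all genes tested. The median of the 10 genes was -0.032 with the trend of the fold change on exon length removed, -0.052 without CTRL 2, -0.011 without KO 2 and -0.16 without KO 1. Bulk RNA cannot tell a change in every cell from a change in the share of cells that express a gene, since fewer expressing cells and less RNA per cell give the same value.

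**Figure D1:**
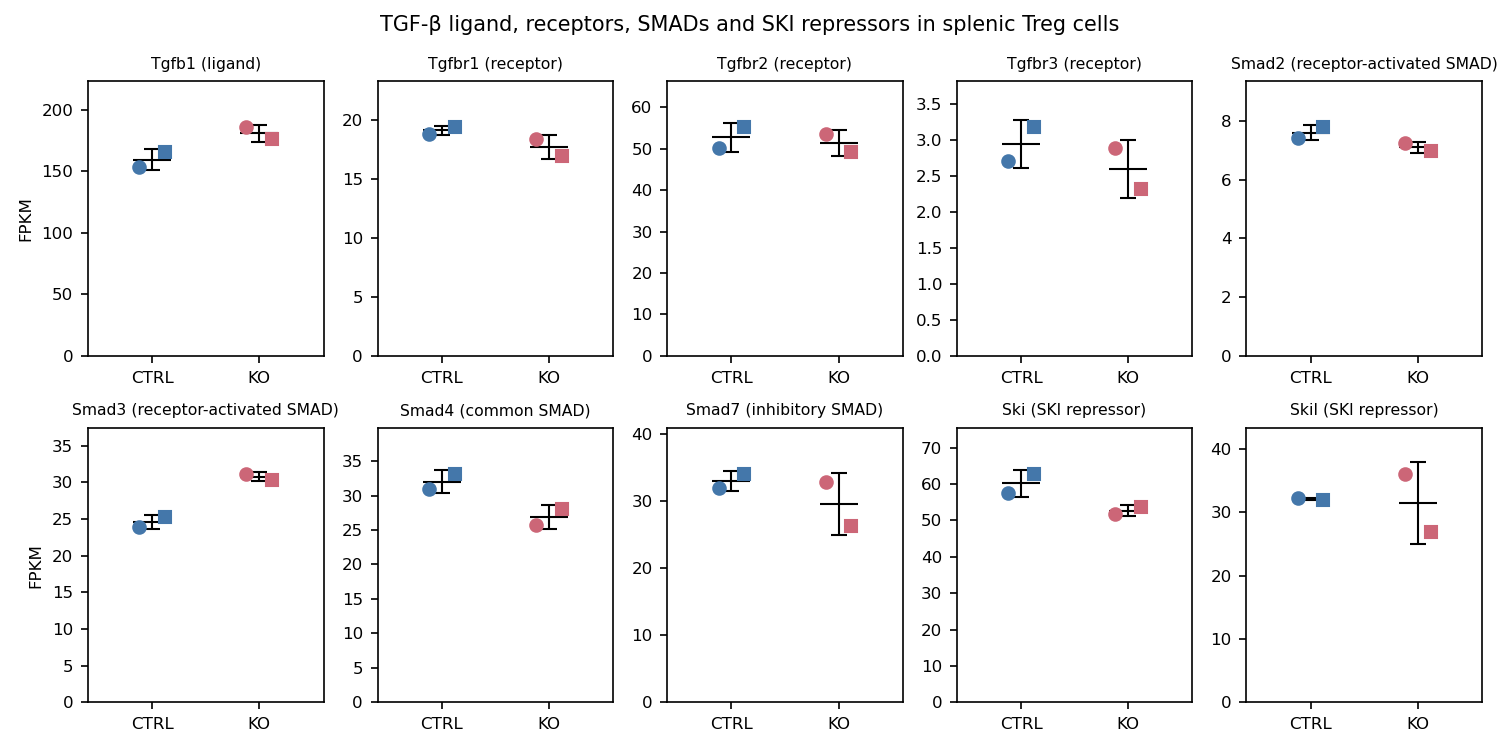
FPKM (y axis, from 0) of the 10 genes in CTRL and KO splenic Treg cells. Circles are the libraries numbered 1 and squares those numbered 2, and horizontal lines with bars are the mean and SD of 2 libraries. Smad3 was at 31.2 and 30.3 FPKM in KO and above both CTRL libraries, and Skil and Smad7 were further apart between the KO libraries than between the CTRL libraries.

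The ligand was the most abundant of the 10 genes. Tgfb1 (ENSMUSG00000002603, chromosome 7, 25687002 to 25705077, plus strand) encodes TGF-β1, the main isoform made by lymphocytes. Positions are those of GRCm38 here and for the other genes. Tgfb1 was measured at 153.3 and 165.4 FPKM in CTRL 1 and 2, against 185.8 and 175.9 FPKM in KO 1 and 2. Both KO libraries were above both CTRL libraries, with means of 159.4 ± 8.52 and 180.9 ± 6.99 FPKM (SD, n = 2 per group). Its log2 fold change was 0.18 (standard error 0.065, 95% interval 0.016 to 0.35), and with an adjusted p of 0.121 it did not pass the threshold. Under quantile normalization the log2 fold change was 0.056.

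The receptors differed little between the genotypes, while their levels differed widely from each other. The type II receptor gene Tgfbr2 (ENSMUSG00000032440, chromosome 9, 116084293 to 116175360, minus strand) was measured at 50.2 and 55.2 FPKM in the CTRL libraries, against 53.6 and 49.2 in the KO libraries. Its groups overlapped, and the log2 fold change was -0.035 with a 95% interval of -0.23 to 0.16 (adjusted p 0.776). Its direction was not stable, since the log2 fold change was 0.031 without CTRL 2, 0.026 without KO 2 and 0.035 with the trend of the fold change on exon length removed. The type I receptor gene Tgfbr1 (ENSMUSG00000007613, chromosome 4, 47353222 to 47414931, plus strand) was measured at 18.8 and 19.4 FPKM in the CTRL libraries, against 18.4 and 17.0 in the KO libraries. All KO values were below the CTRL values, but by less than the test could separate from the spread between libraries (log2 fold change -0.11, 95% interval -0.29 to 0.072, adjusted p 0.332). The Tgfbr1 value was -0.050 without KO 2, -0.16 without KO 1 and -0.052 with the exon length trend removed. Tgfbr3 (ENSMUSG00000029287, chromosome 5, 107106570 to 107289629, minus strand) encodes betaglycan, a co-receptor that presents the ligand to TGFBR2. It was the lowest of the 10 genes, at 2.71 and 3.18 FPKM in CTRL and 2.89 and 2.32 FPKM in KO, and its groups overlapped (log2 fold change -0.13, 95% interval -0.47 to 0.20, adjusted p 0.516). Single libraries moved this value, which was -0.020 without KO 2, -0.048 without CTRL 2, -0.22 without CTRL 1 and -0.25 without KO 1, and it was -0.078 with the exon length trend removed. An uncharacterized transcript, Gm43422, overlaps 4.54% of its exons on the same strand, so the counting could split a small part of its reads. Within a library, Tgfbr2 was between 2.67 and 2.91 times as abundant as Tgfbr1.

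Of the receptor-activated SMADs, Smad3 passed the threshold and Smad2 did not. Smad3 (ENSMUSG00000032402, chromosome 9, 63646767 to 63757994, minus strand) encodes the receptor-activated SMAD that binds DNA directly. It was measured at 23.9 and 25.2 FPKM in CTRL 1 and 2, against 31.2 and 30.3 FPKM in KO 1 and 2. The lowest KO library was above the highest CTRL library, and the means were 24.6 ± 0.92 and 30.8 ± 0.58 FPKM (SD, n = 2 in each genotype). This was a log2 fold change of 0.31 (standard error 0.061, 95% interval 0.16 to 0.47, limma adjusted p 0.0441). Between libraries of the same number, which no label pairs, the log2 difference was 0.37 (KO 1 against CTRL 1) and 0.26 (KO 2 against CTRL 2). Myeloid, B cell and erythroid marker RNA was higher in both libraries numbered 1, and its part in the Smad3 difference was not tested. The call was close to the threshold. Of 10 other settings 7 kept it. The adjusted p was 0.0520 under quantile normalization, 0.0638 without the variance trend and 0.0898 with no filter on low values, where 0 genes of the whole table were called. With any 1 library left out the log2 fold change was 0.28 to 0.35. The call was lost in these fits, as were nearly all calls of the whole table, so this loss is not particular to Smad3. Smad2 (ENSMUSG00000024563, chromosome 18, 76241580 to 76310963, plus strand), its close relative, was measured at 7.42 and 7.78 FPKM in the CTRL libraries, against 7.24 and 6.97 in the KO libraries. Its KO values were slightly below its CTRL values, with a log2 fold change of -0.086 (95% interval -0.28 to 0.11, adjusted p 0.469). It was -0.012 with the exon length trend removed, -0.022 under quantile normalization and -0.056 without CTRL 2.

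Smad4 (ENSMUSG00000024515, chromosome 18, 73639009 to 73703780, minus strand) encodes the common partner of the receptor-activated SMADs. It was measured at 30.9 and 33.2 FPKM in CTRL 1 and 2, against 25.7 and 28.1 FPKM in KO 1 and 2, and the groups did not overlap. The log2 fold change was -0.24 (standard error 0.074, 95% interval -0.43 to -0.054), and the adjusted p of 0.0908 missed the threshold, with values between 0.0642 and 0.154 in the 10 other settings. Between libraries of the same number, which no label pairs, the log2 difference was -0.26 and -0.23, and other pairings would give other sizes. With any 1 library left out the log2 fold change was -0.31 to -0.18. Smad7 (ENSMUSG00000025880, chromosome 18, 75367529 to 75395935, plus strand), an inhibitor that TGF-β itself induces, was measured at 31.9 and 34.1 FPKM in the CTRL libraries, against 32.9 and 26.3 in the KO libraries. KO 1 lay within the CTRL range and KO 2 below it. The log2 fold change of Smad7 was -0.16 (95% interval -0.45 to 0.14, adjusted p 0.381). KO 2 set this value, which became -0.0030 when KO 2 was left out and -0.31 when KO 1 was.

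Neither SKI repressor passed the threshold. Ski (ENSMUSG00000029050, chromosome 4, 155154075 to 155222592, minus strand) was measured at 57.6 and 62.8 FPKM in the CTRL libraries, against 51.7 and 53.8 in the KO libraries, with no overlap between the groups. Its log2 fold change was -0.19 (standard error 0.067, 95% interval -0.36 to -0.016, adjusted p 0.121), and it was -0.12 without CTRL 2. Skil (ENSMUSG00000027660, chromosome 3, 31095058 to 31122577, plus strand), which TGF-β induces and which feeds back on the pathway, was measured at 32.2 and 32.0 FPKM in the CTRL libraries, against 36.1 and 26.9 in the KO libraries. The KO libraries lay on either side of both CTRL libraries. Its log2 fold change was -0.041 (standard error 0.14, 95% interval -0.40 to 0.32, adjusted p 0.860), and it turned to 0.16 without KO 2 and to 0.042 with the exon length trend removed. Skil had the largest standard error and Smad3 the smallest among the 10 genes.

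**Figure D2:**
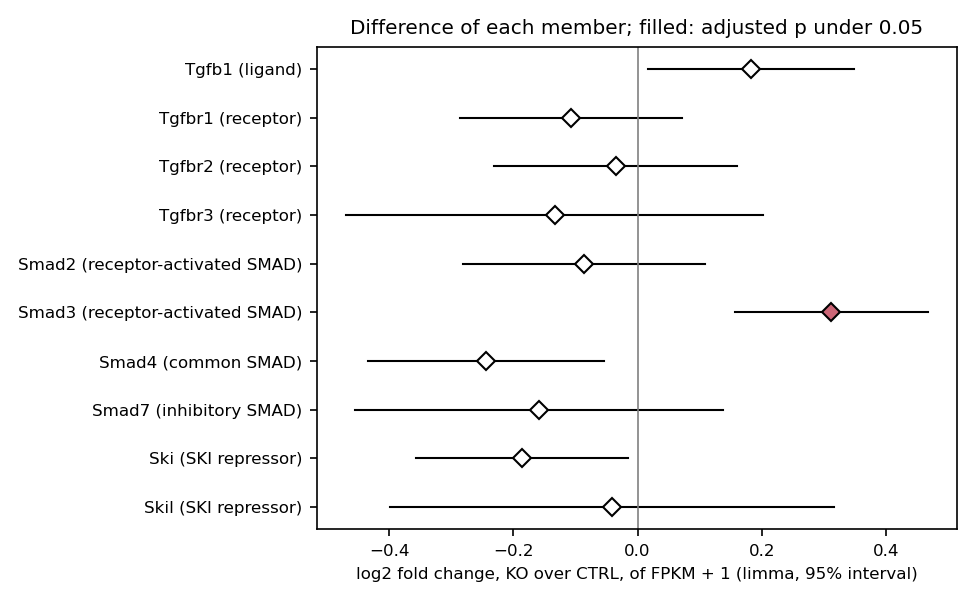
Log2 fold change of FPKM + 1, KO over CTRL (x axis), of the 10 genes, with 95% intervals from the limma fit over all 11399 genes tested. The filled symbol marks Smad3 (0.31, adjusted p 0.0441), the sole gene past the threshold, and the intervals of Tgfb1, Smad4 and Ski exclude 0 while their adjusted p were 0.121, 0.0908 and 0.121.

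Levels per gene length could be set side by side, since FPKM is scaled by length. In CTRL the order from high to low was Tgfb1, Ski, Tgfbr2, Smad7, Skil, Smad4, Smad3, Tgfbr1, Smad2 and Tgfbr3. Smad7, Skil and Smad4 could not be told apart in CTRL, at means of 33.0, 32.1 and 32.0 FPKM with overlapping libraries, and no other neighbours in the order overlapped. In KO the order was Tgfb1, Ski, Tgfbr2, Skil, Smad3, Smad7, Smad4, Tgfbr1, Smad2 and Tgfbr3, so that Smad3 stood above Smad4 in place of below it. Each neighbouring pair from Skil to Smad4 overlapped in KO, and so did Ski and Tgfbr2. The gene length that the authors used was not stated, and an error in it would move a gene's level equally in all libraries.

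Ratios within a library do not depend on how the libraries were scaled, and 4 of them, chosen after the values were seen, are given as a description. Smad3 was 3.22 and 3.24 times as abundant as Smad2 in CTRL 1 and CTRL 2, and 4.30 and 4.36 times in KO 1 and KO 2. Smad3 over Smad4 was 0.775 and 0.761 in CTRL and 1.21 and 1.08 in KO. Smad3 over Ski was 0.416 and 0.401 in CTRL and 0.603 and 0.564 in KO. The KO ratios were above the CTRL ratios in all 3 cases, by 0.42, 0.58 and 0.51 on the log2 scale. These 3 ratios share the Smad3 value, and Smad2, Smad4 and Ski were each lower in both KO libraries. Their separation thus follows from values already given and is not separate evidence. Tgfbr2 over Tgfbr1 was 2.67 and 2.85 in CTRL and 2.91 and 2.90 in KO, a log2 difference of 0.077, and here too both KO ratios were above both CTRL ratios.

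**Figure D3:**
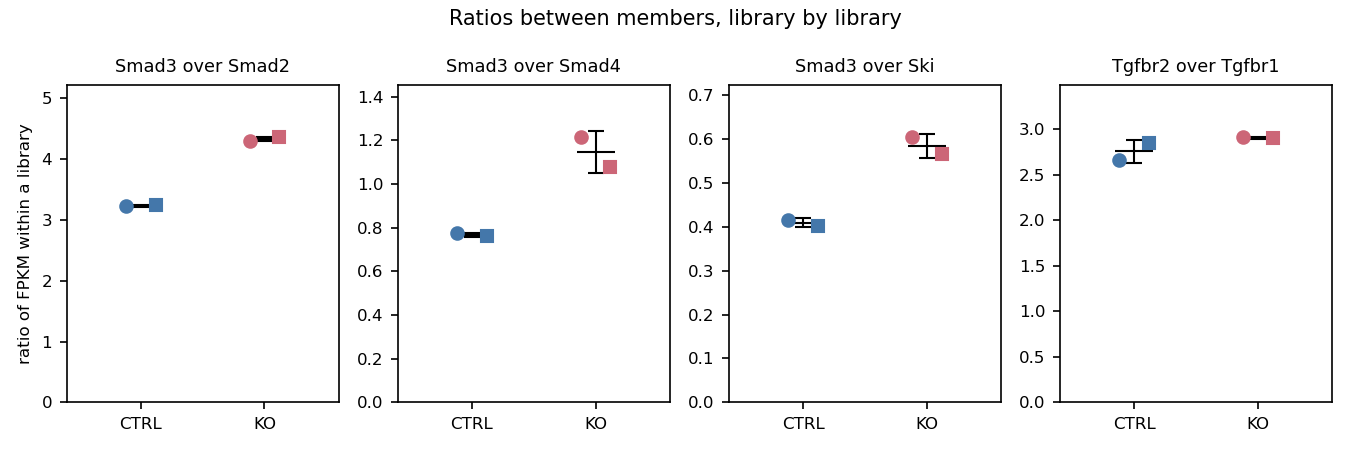
Ratio of FPKM between 2 genes of the same library (y axes, from 0) in CTRL and KO. Circles are the libraries numbered 1 and squares those numbered 2, with mean and SD of 2 libraries. Smad3 over Smad4 was below 1 in both CTRL libraries (0.775 and 0.761) and above 1 in both KO libraries (1.21 and 1.08).

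To place these genes in their pathway, 80 other genes of TGF-β signalling were read by role. All 80 were in the table and 56 passed the filter. Of these 56, 4 rose (Gzmb, Bmpr1a, Nrp1 and Runx3) and 1 fell (Usp11). All 5 calls were lost with any 1 library left out, as were nearly all calls of the whole table, while each of the 5 genes kept its direction. The 5 genes make 8.93% called, compared with 9.75% of all genes tested. The median log2 fold change of the 56 genes was -0.061, and 38 of them had groups that did not overlap, compared with 64.5% of all genes tested. The 24 genes below the filter reached at most 1.19 FPKM in any library. They included all 5 other ligand genes (Tgfb2, Tgfb3, Inha, Inhba and Inhbb).

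Of 12 genes that hold or release latent TGF-β, 6 passed the filter. Nrp1 (chromosome 8, 128358604 to 128503363) encodes neuropilin 1, a marker of thymic-derived Treg cells that also binds latent TGF-β. It was measured at 58.6 and 60.5 FPKM in the CTRL libraries, against 76.4 and 83.1 in the KO libraries, well apart (log2 fold change 0.41, standard error 0.064, adjusted p 0.0375). Mir1903 overlaps 0.818% of its exons on the same strand. Lrrc32, which encodes GARP, was measured at 92.0 and 107.4 FPKM in the CTRL libraries, against 123.3 and 122.1 in the KO libraries. Both KO libraries were above both CTRL libraries, but the log2 fold change of 0.30 had an adjusted p of 0.0807 and did not pass. Nrros, a relative of GARP found on myeloid cells, had means of 28.1 and 29.1 FPKM (log2 fold change 0.045, adjusted p 0.621). Of the 6 latency genes tested, 1 was called higher and 0 lower, and 5 had a log2 fold change above 0. Over all 11399 genes tested, 5271 had a log2 fold change above 0 and 9.75% were called. These are also the shares to set beside the small counts of the other roles below.

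Among the other receptors of the family, Bmpr1a (chromosome 14, 34410734 to 34503341), a type I receptor for BMPs, was measured at 1.17 and 1.26 FPKM in the CTRL libraries, against 2.78 and 2.32 in the KO libraries. Its level was low but well apart between the genotypes (log2 fold change 0.68, standard error 0.12, adjusted p 0.0420), and its mean in KO was 2.11 times that in CTRL. The antisense gene Gm17110 overlaps 4.57% of its exons. Acvr1b, which encodes a type I activin receptor that signals through SMAD2 and SMAD3, was measured at 8.74 and 10.7 FPKM in the CTRL libraries, against 6.52 and 6.69 in the KO libraries. The groups did not overlap, and its log2 fold change of -0.49 had an adjusted p of 0.0545. Acvr2a had a log2 fold change of -0.29 (adjusted p 0.119). In all, 1 of 7 receptor genes tested was called higher and 0 lower. The BMP-type SMAD genes Smad5 (log2 fold change -0.32, adjusted p 0.0799) and Smad1 (-0.070, adjusted p 0.653) did not pass, and Smad6 and Smad9 were below the filter.

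Of 16 genes tested that regulate the receptors or SMADs, 1 fell and 0 rose. Usp11 (chromosome X, 20703906 to 20720539), a deubiquitinase described to act on the type I receptor, was measured at 9.34 and 9.45 FPKM in the CTRL libraries, against 6.94 and 6.61 in the KO libraries (log2 fold change -0.42, standard error 0.073, adjusted p 0.0405). The most abundant genes of the group that did not pass were Fkbp1a, which encodes a protein that holds the type I receptor inactive (log2 fold change 0.17, adjusted p 0.181), and Strap (0.21, adjusted p 0.115). Of 10 nuclear partners tested, 1 rose. Runx3 (chromosome 4, 135120652 to 135177990), which encodes a RUNX factor that works with SMADs in T cells, was measured at 22.0 and 24.4 FPKM in the CTRL libraries, against 30.1 and 32.7 in the KO libraries (log2 fold change 0.42, standard error 0.080, adjusted p 0.0430). The corepressor genes Ncor1 and Tgif1 did not pass (log2 fold changes -0.11 and 0.37, adjusted p 0.303 and 0.390). None of the 5 genes of the TAK1 branch, which carries TGF-β signals without SMADs, passed. A log2 fold change below 0 was found for 4 of the 5, compared with 6128 of all 11399 genes tested. Tab2 had a log2 fold change of -0.15 (adjusted p 0.135) and Traf6 of 0.0042 (adjusted p 0.982).

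Genes known to respond to TGF-β in T cells were read last. Of 4 induced genes tested, 0 passed in either direction, and 1 had a log2 fold change above 0 and 3 below 0. Foxp3, the lineage factor of Treg cells, had means of 130.2 and 115.4 FPKM in CTRL and KO (log2 fold change -0.17, adjusted p 0.238), and Gpr15, a homing receptor, had means of 25.8 and 32.8 FPKM (0.34, adjusted p 0.0805). The study listed Gpr15 among genes raised in both splenic and intestinal KO Treg cells, by edgeR at p under 0.05. That is a looser threshold than the one used here, and the unadjusted limma p of Gpr15 was 0.0166. Foxp3 overlaps Flicr in its exons on the same strand, and Gpr15 overlaps Cpox on the other. Since the sources used here do not say if strand was used in counting, the values of Foxp3 and Gpr15 are uncertain. Itgae was measured at 31.2 and 29.3 FPKM in the CTRL libraries, against 25.8 and 26.0 in the KO libraries. Both KO libraries were below both CTRL libraries, but the log2 fold change of -0.22 had an adjusted p of 0.0793 and did not pass. Tgfbi had a log2 fold change of -0.18 (adjusted p 0.814). Of 6 repressed genes tested, 1 rose and 0 fell, compared with 9.75% of all genes tested called in either direction. By sign alone, 2 of the 6 had a log2 fold change above 0 and 4 below 0, with a median of -0.050. Gzmb (chromosome 14, 56258838 to 56262260), which encodes the cytotoxic protease granzyme B, was measured at 17.0 and 14.6 FPKM in the CTRL libraries, against 36.6 and 47.2 in the KO libraries. Among the 56 pathway genes tested it had the largest log2 fold change, and its KO mean was 2.65 times the CTRL mean (log2 fold change 1.34, standard error 0.14, adjusted p 0.0306). Of the most abundant others, which did not pass, Ifng, 25.9% of whose exons overlap Gm49751 on the same strand, had a log2 fold change of -0.32 (adjusted p 0.235) and Tbx21 of 0.15 (adjusted p 0.296). Eomes (-0.050, adjusted p 0.792), Prf1 (-0.050, adjusted p 0.811) and Fasl (-0.10, adjusted p 0.519) did not pass either.

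**Figure D4:**
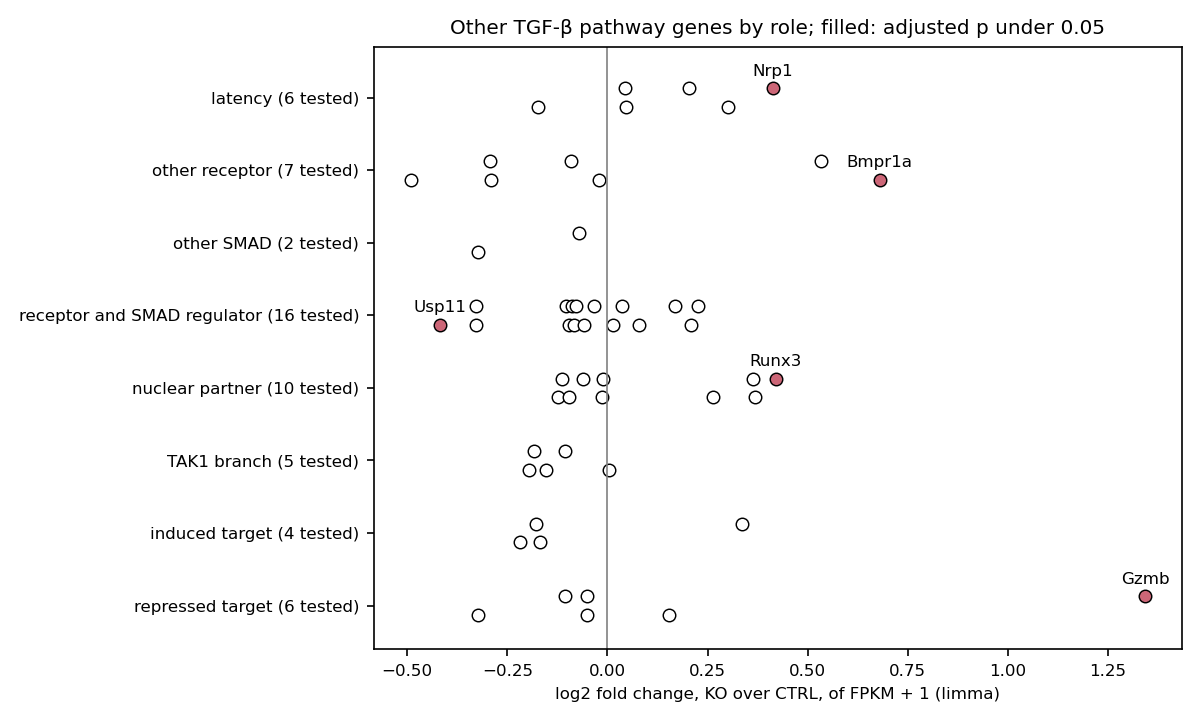
Log2 fold change of FPKM + 1, KO over CTRL (x axis), of the 56 other TGF-β pathway genes tested, by role. Filled symbols mark the 5 genes past the threshold, of which Gzmb (1.34), Bmpr1a (0.68), Runx3 (0.42) and Nrp1 (0.41) were higher and Usp11 (-0.42) was lower in KO, and open symbols lie on both sides of 0.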

How the data were processed

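Poly(A) RNA was read as pairs of 150 bp. The submitters' processing notes name HISAT2 (2.2.1), featureCounts (2.0.1) and the mm10 build, and the authors deposited FPKM values. The annotation and gene lengths used, the use of strand and the treatment of multi-mapped reads were not given in the sources used here. Columns named WT were read as the CTRL libraries of the same number.

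KO was compared with CTRL by limma (3.58.1, R 4.3.3; lmFit, eBayes with trend) on log2(FPKM + 1) over the 11399 of 24087 genes that reached an FPKM of 1 in 2 or more libraries. The 2-sided p-values were Benjamini-Hochberg adjusted over this whole set, with 0.05 as the threshold. Fold changes on this scale understate changes of low genes. The study's edgeR test was not run, since the deposited values are FPKM. A count-based fit, limma-voom on read numbers recovered from the FPKM, was among the other settings. p-values rest on 2 pools of mice per group. Whole-number ratios of FPKM between libraries gave relative depth and least read numbers for all 19888 genes above 0 (tolerance at most 0.05 of a read). Positions and exon lengths came from GENCODE vM21 (GRCm38). The main fit was also run on simulated data with planted changes larger than that of Smad3. That run does not show how the fit performs on changes of the size of Smad3.

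The 10 genes and the lists were chosen with earlier results of these data known. Genes named were the 10 members, Setd2, every pathway gene past the threshold, the 2 most abundant genes per role that did not pass, and genes below the filter. The other tested genes known to respond to TGF-β were named after the values were seen. Settings tried were a pseudocount of 0.1, other filters, scalings and variance models, a replicate block, limma-voom on the recovered reads, removal of the exon length trend, and leaving out each library.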

Additional observations from a re-analysis of the deposited data

How the results depend on the processing

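Among the 10 genes, Smad3 kept its direction in each setting tried and with each library left out. It was not called with no filter, under quantile normalization or without the variance trend, so that the count of members called higher was 0 in these settings and 1 in the other 7. No member was called lower in any setting. With 1 library left out the count higher was 0 each time, and genome-wide 0 to 1 genes were higher and 0 to 1 lower, with 1342 to 1423 higher and 1292 to 1621 lower at an unadjusted p under 0.05. Such fits leave 1 residual degree of freedom and assume that the lone library varies like the other genotype. With no filter, limma called 0 genes higher and 0 lower (2212 and 2251 at an unadjusted p under 0.05) and 0 pathway genes in either direction. The main counts of 581 higher and 530 lower genes became 315 higher without the variance trend, 881 higher and 1008 lower with limma-voom, and 321 lower with the exon length trend removed.

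The 4 pathway genes called higher became 2 without the variance trend and 0 with any 1 library left out. The 1 called lower became 3 with a mean FPKM above 5 as the filter, 5 with limma-voom, 2 with robust eBayes, and 0 under quantile normalization and with any 1 library left out. With the exon length trend removed, the median was -0.032 for the members, 0.0016 for the pathway list and 0.0026 for all genes tested, the last compared with -0.0055 with median-ratio scaling and -0.015 under quantile normalization. With 1 library left out, the medians ranged from -0.16 to -0.011 for the members, from -0.094 to -0.013 for the pathway list and from -0.031 to -0.016 for all genes tested. Tgfbr2 reversed to 0.035 and Skil to 0.042 with the exon length trend removed. Without 1 library Tgfbr2 ranged from -0.10 to 0.031 and was 0.026 without KO 2, and Skil ranged from -0.25 to 0.16. The cause of these changes was not tested.

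No label links a replicate number to a litter or day. A replicate block gave 968 higher and 805 lower genes, 2 pathway genes were lower, and the calls among the 10 genes did not change. Deviations of same-numbered libraries correlated across genes with Pearson's r of 0.342 and Spearman's rho of 0.055, and genes are not independent replicates.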

Other observations

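KO 1 was above KO 2 for 8 of the 10 members, compared with 46.4% of all genes tested, and CTRL 2 was above CTRL 1 for 9 of 10, compared with 46.6%. These counts were made after the values were seen and were not tested. Among the members, the gap between the KO libraries on the log2(FPKM + 1) scale was largest for Skil (0.41) and Smad7 (0.31). The corepressor genes Tgif1 and Tgif2 (the latter chosen after its values were seen) were also high in KO 1, at 68.3 and 37.8 FPKM in KO 1 and KO 2 for Tgif1 and at 22.0 and 14.6 FPKM for Tgif2, compared with 36.9 and 41.6 FPKM and 12.7 and 14.8 FPKM in CTRL 1 and CTRL 2. Of the 4 induced genes tested, Tgfbi was higher in KO 1 (5.28 FPKM) than in KO 2 (2.14 FPKM). It was likewise higher in CTRL 1 (6.16 FPKM) than in CTRL 2 (2.52 FPKM), and so was high in both libraries numbered 1. Foxp3 and Gpr15 were lower in KO 1 than in KO 2, at 111.6 and 119.2 FPKM for Foxp3 and 31.5 and 34.0 FPKM for Gpr15. Itgae was nearly equal in KO 1 and KO 2, at 25.8 and 26.0 FPKM. Of the exons of Tgif2, 56.7% overlap 5430405H02Rik on the other strand. Myeloid marker RNA was 238.6 FPKM in KO 1 and 84.4 FPKM in KO 2. The B cell sums were 39.9 and 24.1 FPKM and the erythroid sums 38.5 and 11.4 FPKM in the same libraries. The part of such RNA in these differences was not tested.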
